A study of Homo sapiens with 6 samples.

Results

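The glycolytic enzymes described here are 10 genes, HK1, HK2, PFKP, PFKM, PFKL, PGK1, ENO1, PKM, LDHA and LDHB. They are 10 of the 11963 genes named on the arrays. Every probe set that the platform annotation assigns to 1 of them was taken, which gave 19 of the 22277 probe sets on each of the 6 arrays. HK2 had 2 of them and is described apart from the others. The cells were NCI-H929, an established human multiple myeloma line, and all received small interfering RNA (siRNA) by electroporation 24 h before RNA extraction. The siRNA was directed against RRM1 on 2 arrays (siRRM1) and against RRM2 on 2 arrays (siRRM2), and was a scramble control on the other 2. RRM1 and RRM2 encode the subunits of ribonucleotide reductase, which makes deoxyribonucleotides for DNA synthesis. The knockdowns are transient, every sample comes from 1 cell line, and no array of cells without electroporation was analysed here. Whether replicate arrays stand for separate cultures is not in the labels, so each p-value measures only the spread between these samples, which may be technical.

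Glycolysis splits glucose into pyruvate in the cytosol and yields ATP and NADH. Hexokinase traps glucose as its phosphate, phosphofructokinase commits the sugar to the pathway, and lactate dehydrogenase turns pyruvate into lactate and restores NAD+. Many tumour cells, myeloma cells included, take up much glucose and release lactate also when oxygen is present, and HK2 is the hexokinase most often linked with that state.

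Upstream DNA is shown for HK2, the member with a probe set past the threshold below, and for PGK1 and LDHA, since these 3 genes hold most of the matches found to a short motif of hypoxia-responsive and MYC-family sites. The stretches are the 250 bases before the annotated start, 5′ to 3′ in the direction of the gene, from RefSeq on GRCh38.p14. They lie at chr2:74833877-74834126 (plus strand) and chr2:74834920-74835169 (plus strand) for the 2 HK2 starts, chrX:78103998-78104247 (plus strand) for PGK1, and chr11:18394313-18394562 (plus strand) for the upstream of 2 LDHA starts, whose other window held no match and is not shown. Capitals mark ACGTG read on either strand, so that a match on the other strand appears as CACGT, and CACGTG holds the motif on both strands.
HK2 upstream start: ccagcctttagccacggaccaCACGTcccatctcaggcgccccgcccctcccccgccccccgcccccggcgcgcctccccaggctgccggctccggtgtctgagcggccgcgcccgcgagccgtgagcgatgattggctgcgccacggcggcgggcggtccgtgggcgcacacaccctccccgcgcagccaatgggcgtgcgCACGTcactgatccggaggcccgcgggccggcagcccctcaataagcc
HK2 downstream start: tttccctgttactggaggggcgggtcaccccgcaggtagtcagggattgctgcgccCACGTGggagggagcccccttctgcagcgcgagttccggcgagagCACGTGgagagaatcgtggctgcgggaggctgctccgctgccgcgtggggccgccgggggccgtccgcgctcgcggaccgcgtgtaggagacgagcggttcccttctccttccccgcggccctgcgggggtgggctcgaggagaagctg
PGK1: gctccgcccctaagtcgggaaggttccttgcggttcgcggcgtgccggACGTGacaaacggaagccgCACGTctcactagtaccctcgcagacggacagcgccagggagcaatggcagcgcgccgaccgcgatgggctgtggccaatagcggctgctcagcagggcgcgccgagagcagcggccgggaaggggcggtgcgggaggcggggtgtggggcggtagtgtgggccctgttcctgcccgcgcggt
LDHA upstream start: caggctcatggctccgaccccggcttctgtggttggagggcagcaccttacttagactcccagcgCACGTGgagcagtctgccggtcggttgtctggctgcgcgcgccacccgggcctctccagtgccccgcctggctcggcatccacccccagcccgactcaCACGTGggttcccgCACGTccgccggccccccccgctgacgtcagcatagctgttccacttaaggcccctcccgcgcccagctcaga
Counting strands separately, there were 2 and 4 matches in the HK2 windows, 2 in PGK1 and 5 in this LDHA window. Of the 10 members, 5 had at least 1 window with ACGTG and 2, HK2 and LDHA, had CACGTG. Of all 35116 windows of this length in the table, 18.5% held ACGTG and 6.34% held CACGTG, while 6 of the members' 27 windows held ACGTG and 2 held CACGTG. A match describes these letters only. Protein sequences were not used here.

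Values are log2 signals as deposited, and every difference is a difference in log2 signal between groups, tested per probe set with limma over all 6 arrays and adjusted over the 13308 probe sets whose mean reached 5.44. All 19 member probe sets passed that filter. A probe set was called changed at an adjusted p under 0.05. In siRRM1 against scramble 12.2% of all probe sets were called (1619 of 13308, 854 higher and 765 lower), in siRRM2 against scramble 1.32% (176, of which 149 were higher and 27 lower), and in siRRM1 against siRRM2 0.0376% (5, 3 higher and 2 lower). After median centring of the arrays, the siRRM1 calls split into 747 higher and 1073 lower. The siRRM1 count fell without siRRM1 replicate 2, without either scramble array and without either siRRM2 array, and it rose without siRRM1 replicate 1. The siRRM2 count lay between 6 and 22 without any 1 of the siRRM2 or scramble arrays. RRM1 fell to 16.4% and 16.2% of scramble in siRRM1 by its 2 probe sets (201476_s_at and 201477_s_at, limma adjusted p = 0.00527 and 0.00289), and RRM2 fell to 29.0% and 15.4% in siRRM2 (201890_at and 209773_s_at, adjusted p = 0.0361 and 0.00219). Plasma cell markers mostly fitted the labelled cell type, with JCHAIN, TNFRSF17 and XBP1 above the 98.6th percentile of all probe sets. Of the same list, CD27 206150_at (percentile 31.6) and IRF4 216987_at (percentile 4.41) lay below the filter, while IRF4 204562_at and 216986_s_at passed it. Across probe sets, Pearson's r between the replicate arrays was 0.992 for siRRM1, 0.996 for siRRM2 and 0.994 for scramble. Between siRRM1 replicate 1 and siRRM2 replicates 1 and 2 it was 0.994 and 0.995, higher than between the siRRM1 replicates.

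Of the 19 glycolytic probe sets, 1 fell and 0 rose in siRRM1 against scramble, where 5.75% of all probe sets fell and 6.42% rose. In siRRM2 against scramble 0 rose and 0 fell, where 1.12% and 0.203% of all did. The 1 that fell was HK2 202934_at. At an unadjusted p under 0.05 there were 4 members in siRRM1 (29.9% of all probe sets) and 5 in siRRM2 (18.8% of all). The median log2 difference of the members was -0.02 in siRRM1 and 0.00 in siRRM2, beside -0.02 and -0.01 over all probe sets. The median size of the difference, sign aside, was 0.17 and 0.16 for the members and 0.17 and 0.13 for all. The arrays of the groups did not overlap for 8 members in siRRM1 (42.1%, with 57.4% of all probe sets) and for 13 in siRRM2 (68.4%, with 54.8% of all). The first share lies under the background and the second above it, and the comparisons share their scramble arrays. Between the knockdowns, 0 members were higher (0.0225% of all probe sets) and 0 lower (0.015% of all) by limma in siRRM1 against siRRM2, also 0 at an unadjusted p under 0.05 (8.63% of all), and 9 did not overlap (47.4%, with 38.5% of all).

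**Figure D1:**
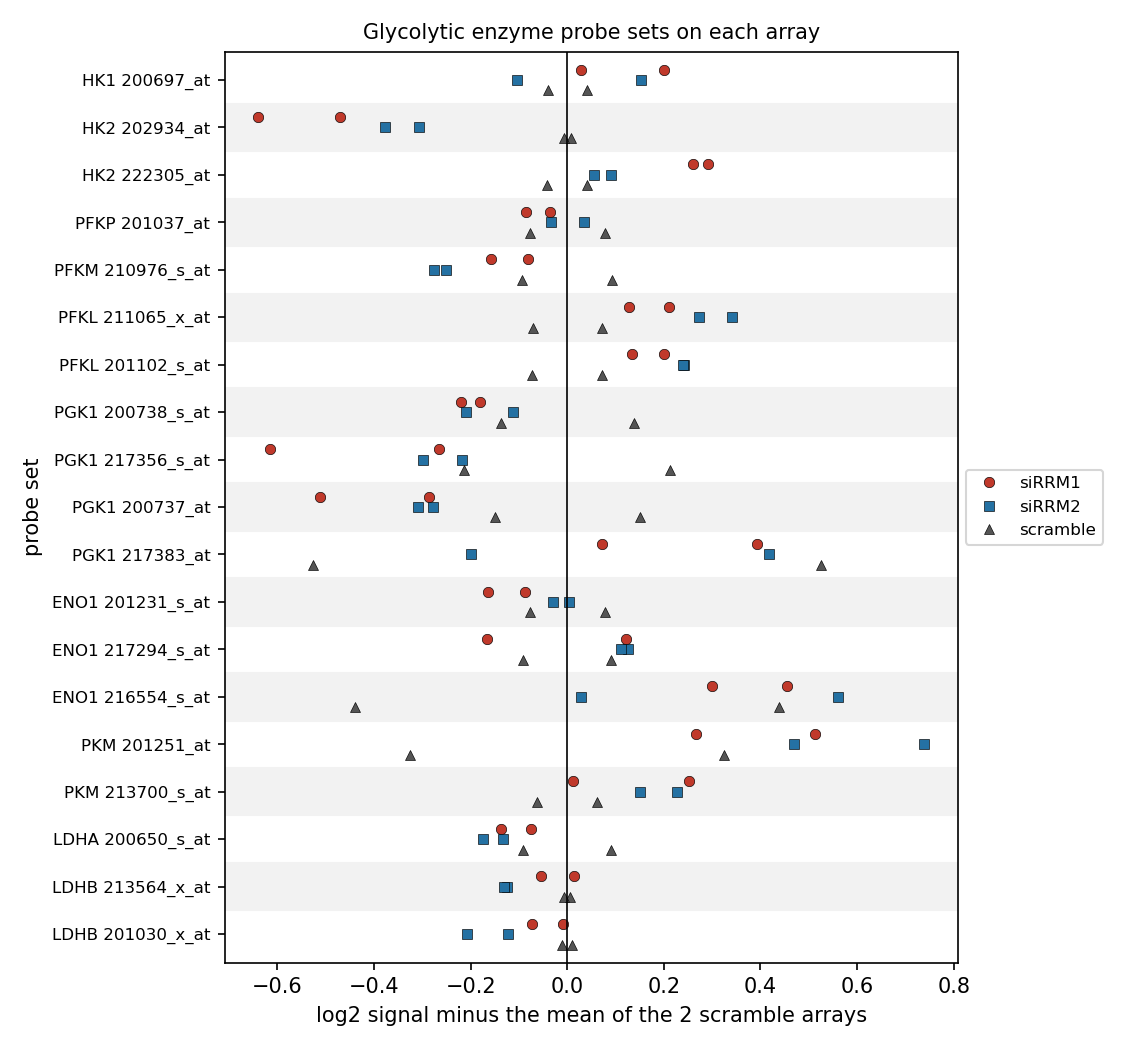
Log2 signal of each glycolytic probe set on each array, minus the mean of the 2 scramble arrays (horizontal axis), with 1 row per probe set, siRRM1 as circles, siRRM2 as squares and scramble as triangles. For HK2 202934_at all 4 knockdown arrays lie below scramble while the scramble triangles lie together, and the triangles are farthest apart for PGK1 217383_at, ENO1 216554_s_at and PKM 201251_at.

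HK2 encodes hexokinase 2, an isoform that binds the outer mitochondrial membrane. Probe set 202934_at had log2 signals of 9.47 and 9.64 in siRRM1, 9.73 and 9.80 in siRRM2, and 10.12 and 10.10 in scramble. All 4 knockdown arrays lay below both scramble arrays, and both siRRM1 arrays lay below both siRRM2 arrays. HK2 fell in siRRM1 by 0.56 on the log2 scale (SE 0.098, 95% interval -0.79 to -0.33, limma adjusted p = 0.0161), which left 68.0% of the scramble level (interval 58.0% to 79.8%). From the lowest difference upwards it stood at rank 457 of 13308. In siRRM2 the difference of HK2 202934_at was -0.34, or 78.9% of scramble (interval -0.57 to -0.11), and did not pass the threshold (limma adjusted p = 0.136). The difference between the knockdowns was -0.21 (95% interval -0.44 to 0.02, limma adjusted p = 0.611), so neither an equal level nor a lower one in siRRM1 was shown.

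The call for HK2 202934_at in siRRM1 was lost without either scramble array. The difference itself changed little there, while its SE rose from 0.098 to 0.131. Without scramble replicate 1 the difference in siRRM1 was -0.55 (limma adjusted p = 0.0806), and without scramble replicate 2 it was -0.56 (adjusted p = 0.0605). The 2 scramble arrays differed by 0.01 here, and 6.79% of all probe sets differed that little or less between them. Leaving out an siRRM1 array gave -0.47 without replicate 1 (adjusted p = 0.0359) and -0.64 without replicate 2 (adjusted p = 0.0398), and the probe set remained called. Over all alternatives the adjusted p ran between 0.00701 and 0.0806. The fall was 1.47-fold, under 1.5-fold.

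The other HK2 probe set, 222305_at, had log2 signals of 6.20 and 6.23 in siRRM1, 6.02 and 5.99 in siRRM2, and 5.89 and 5.98 in scramble. It thus pointed the other way, with both siRRM1 arrays above all 4 others, and the siRRM2 arrays just above scramble. The difference was 0.28 in siRRM1 (SE 0.089, 95% interval 0.07 to 0.48, limma adjusted p = 0.0869) and 0.07 in siRRM2 (interval -0.14 to 0.28, adjusted p = 0.712), and neither passed the threshold. Between siRRM1 and siRRM2 it was 0.20 (interval -0.01 to 0.41, limma adjusted p = 0.591). By mean signal, 222305_at lay at the 48.7th percentile of all probe sets, and 202934_at at the 88.6th. The part of the HK2 transcript that each probe set reads was not looked up here, and the 2 probe sets give no common value for the gene.

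**Figure D2:**
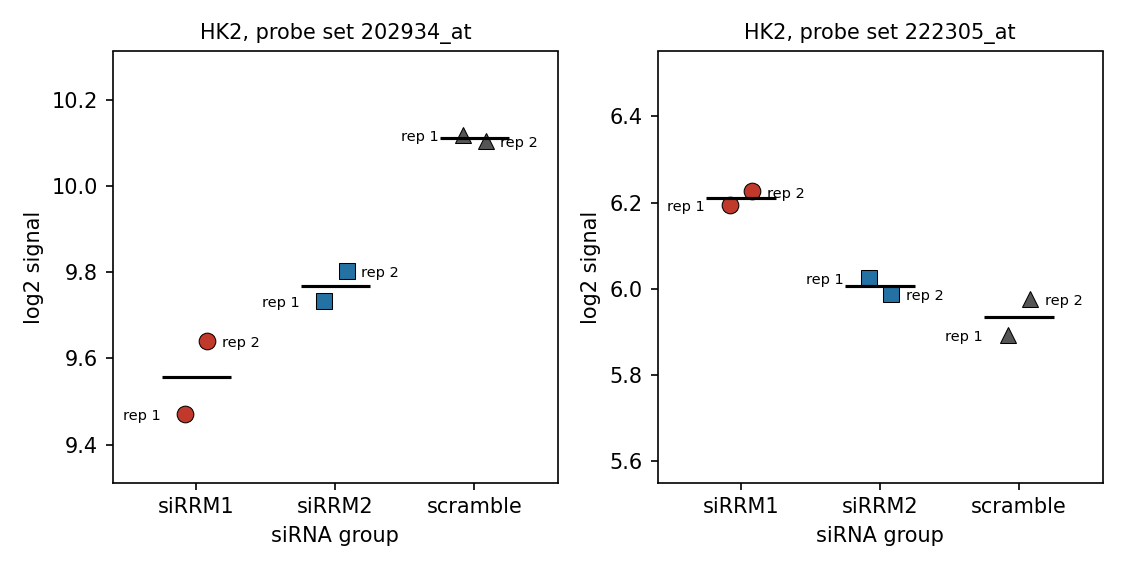
Log2 signal (vertical axis) of the HK2 probe sets on each array, by siRNA group, with each point an array and each line the mean of its group. In 202934_at the siRRM1 arrays lie at 9.47 and 9.64 below scramble at 10.12 and 10.10, while in 222305_at they lie at 6.20 and 6.23 above scramble at 5.89 and 5.98.

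Several marker genes of other cell types rose in siRRM1, where HK2 202934_at was lowest, with fewer calls in siRRM2. Of the myeloid markers, 3 of 3 tested probe sets rose in siRRM1, and S100A8 202917_s_at read 7.88 and 9.46 in siRRM1, 6.53 and 8.23 in siRRM2, and 4.45 and 4.44 in scramble. CD14 and LYZ, which define monocytes, stayed below the filter, as did CD3D, CD3G and CD2 among T cell genes, whereas the T cell receptor gene TRBC1 rose in siRRM1 by 3 of 3 tested probe sets. CD3E 205456_at, the other T cell probe set tested, was not called, with 5.80 and 6.18 in siRRM1, 6.13 and 6.23 in siRRM2, and 5.78 and 5.93 in scramble. Of the stromal markers 2 of 6 tested probe sets rose in siRRM1, while COL1A2, COL3A1, DCN and LUM stayed below the filter. Of the epithelial markers 0 of 2 were called. Of the plasma cell markers 0 of 11 were called in siRRM1, with a median difference of -0.27 (-0.02 over all probe sets). In siRRM2 against scramble 1 stromal probe set rose, and 0 myeloid, T cell, epithelial and plasma cell probe sets were called. Of all probe sets, 6.42% rose in siRRM1 and 1.12% in siRRM2. The 3′ minus 5′ difference of the ACTB control was 0.03 and 0.33 in siRRM1, 0.05 and 0.05 in siRRM2, and 0.34 and 0.15 in scramble, so it did not order the arrays as HK2 did. The part of these measures in the HK2 result was not tested. In such bulk RNA, fewer cells that use a gene and less of its RNA per cell cannot be told apart. The same holds for RNA of other cells and marker RNA made in the NCI-H929 cells.

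The pattern of HK2 202934_at over the 6 arrays was set beside every other tested probe set by the root mean square difference after each was centred on its own mean. The closest was MDC1 203062_s_at, a mediator of the DNA damage checkpoint, at 0.0275 log2 units, against a median of 0.252 over those probe sets. MDC1 had 8.09 and 8.23 in siRRM1, 8.35 and 8.47 in siRRM2, and 8.70 and 8.71 in scramble, the same order of groups as HK2. Next came NSFL1C 217830_s_at, a cofactor of the p97 ATPase (0.0393), the RNA-binding protein gene SYNCRIP 217832_at (0.0443), and both probe sets of the Nudix hydrolase gene NUDT3, 212605_s_at (0.050) and 211976_at (0.0523). These are the nearest of all the patterns compared over 6 arrays, so close matches arise by selection, and none is a glycolytic gene.

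HK1 encodes the hexokinase found in most tissues. Its probe set 200697_at had 8.59 and 8.76 in siRRM1, 8.45 and 8.71 in siRRM2, and 8.52 and 8.60 in scramble. The 3 groups overlapped. The difference from scramble was 0.12 in siRRM1 (95% interval -0.17 to 0.40, limma adjusted p = 0.564) and 0.02 in siRRM2 (interval -0.26 to 0.30, adjusted p = 0.939).

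Phosphofructokinase is a tetramer built from the platelet (PFKP), muscle (PFKM) and liver (PFKL) type subunits, and the 3 genes did not share a direction. PFKP 201037_at had 10.85 and 10.90 in siRRM1, 10.90 and 10.97 in siRRM2, and 10.85 and 11.01 in scramble. All 6 arrays of PFKP lay within 0.16, and the differences were -0.06 in siRRM1 (interval -0.29 to 0.17, limma adjusted p = 0.723) and 0.00 in siRRM2 (interval -0.23 to 0.23, adjusted p = 0.997).

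PFKM 210976_s_at had 9.90 and 9.82 in siRRM1, 9.70 and 9.73 in siRRM2, and 9.88 and 10.07 in scramble. The siRRM2 arrays lay below the other 4, while siRRM1 overlapped scramble. PFKM differed from scramble by -0.12 in siRRM1 (limma adjusted p = 0.468) and by -0.26 in siRRM2 (95% interval -0.50 to -0.03, adjusted p = 0.225), neither past the threshold.

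PFKL had 2 probe sets that ran alike. PFKL 211065_x_at had 7.59 and 7.51 in siRRM1, 7.72 and 7.66 in siRRM2, and 7.31 and 7.45 in scramble. The other, 201102_s_at, had 7.55 and 7.48 in siRRM1, 7.59 and 7.59 in siRRM2, and 7.27 and 7.42 in scramble. In both, all knockdown arrays lay above both scramble arrays. The differences of PFKL 211065_x_at were 0.17 in siRRM1 and 0.31 in siRRM2 (limma adjusted p = 0.289 and 0.162), and those of 201102_s_at were 0.17 in siRRM1 and 0.24 in siRRM2 (adjusted p = 0.283 and 0.236), so 0 of these 4 comparisons passed the threshold.

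PGK1 encodes phosphoglycerate kinase, the earlier of the ATP-producing steps, and 3 of its 4 probe sets had negative differences in both knockdowns. PGK1 200737_at had 10.42 and 10.19 in siRRM1, 10.42 and 10.39 in siRRM2, and 10.55 and 10.85 in scramble. PGK1 217356_s_at had 11.69 and 11.34 in siRRM1, 11.66 and 11.74 in siRRM2, and 11.74 and 12.17 in scramble. In both, the 4 knockdown arrays lay below both scramble arrays, and scramble replicate 2 stood well above scramble replicate 1. The differences in siRRM1 were -0.40 for 200737_at (75.8% of scramble, 95% interval -0.71 to -0.09, limma adjusted p = 0.0905) and -0.44 for 217356_s_at (73.7%, interval -0.84 to -0.04, adjusted p = 0.134). In siRRM2 they were -0.29 for 200737_at (adjusted p = 0.284) and -0.26 for 217356_s_at (adjusted p = 0.457) by limma, and none passed the threshold.

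PGK1 200738_s_at had 12.80 and 12.76 in siRRM1, 12.77 and 12.87 in siRRM2, and 12.85 and 13.12 in scramble, with differences of -0.20 in siRRM1 and -0.16 in siRRM2 (limma adjusted p = 0.288 and 0.499). Only the siRRM1 arrays were separate from scramble there. PGK1 217383_at went the other way, with 7.74 and 7.42 in siRRM1, 7.15 and 7.77 in siRRM2, and 6.83 and 7.88 in scramble. The scramble arrays enclosed all 4 knockdown arrays, and the difference was 0.23 in siRRM1 (interval -0.57 to 1.03) and 0.11 in siRRM2 (interval -0.69 to 0.91), with limma adjusted p of 0.694 and 0.902.

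ENO1 encodes alpha-enolase, which makes phosphoenolpyruvate. ENO1 201231_s_at had 12.80 and 12.73 in siRRM1, 12.86 and 12.89 in siRRM2, and 12.81 and 12.97 in scramble, with differences of -0.13 in siRRM1 and -0.01 in siRRM2 (limma adjusted p = 0.428 and 0.959). ENO1 217294_s_at had 12.90 and 12.61 in siRRM1, 12.90 and 12.89 in siRRM2, and 12.68 and 12.86 in scramble, with differences of -0.02 in siRRM1 and 0.12 in siRRM2 (limma adjusted p = 0.929 and 0.655). In 201231_s_at both siRRM1 arrays lay just below scramble and siRRM2 overlapped it, while in 217294_s_at both siRRM2 arrays lay just above scramble and siRRM1 overlapped it. ENO1 216554_s_at had 9.53 and 9.37 in siRRM1, 9.10 and 9.63 in siRRM2, and 8.64 and 9.51 in scramble. The groups overlapped, and the differences were 0.38 in siRRM1 (interval -0.29 to 1.05, limma adjusted p = 0.417) and 0.29 in siRRM2 (interval -0.37 to 0.96, adjusted p = 0.627).

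PKM encodes pyruvate kinase of the muscle type, whose splice forms these values do not separate. PKM 201251_at had 9.11 and 9.36 in siRRM1, 9.58 and 9.31 in siRRM2, and 8.52 and 9.17 in scramble. Both siRRM2 arrays lay above scramble, while siRRM1 replicate 1 lay below scramble replicate 2. The difference in siRRM2 was 0.60, the highest among the members (152.0% of scramble, 95% interval 0.10 to 1.10), and did not pass the threshold (limma adjusted p = 0.197). In siRRM1 it was 0.39 (interval -0.11 to 0.89, limma adjusted p = 0.266). PKM 213700_s_at had 5.86 and 6.10 in siRRM1, 6.08 and 6.00 in siRRM2, and 5.91 and 5.79 in scramble, with differences of 0.13 in siRRM1 and 0.19 in siRRM2 (limma adjusted p = 0.475 and 0.412).

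LDHA and LDHB encode the subunits of lactate dehydrogenase. LDHA 200650_s_at had 13.42 and 13.48 in siRRM1, 13.38 and 13.42 in siRRM2, and 13.46 and 13.65 in scramble. Only siRRM2 was separate from scramble, and the differences were -0.11 in siRRM1 and -0.15 in siRRM2 (limma adjusted p = 0.518 and 0.451).

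LDHB 213564_x_at had 12.70 and 12.63 in siRRM1, 12.56 and 12.55 in siRRM2, and 12.69 and 12.68 in scramble. LDHB 201030_x_at had 12.29 and 12.22 in siRRM1, 12.17 and 12.09 in siRRM2, and 12.29 and 12.31 in scramble. In both probe sets the siRRM2 arrays lay below the other 4. The differences in siRRM2 were -0.13 and -0.16 (95% intervals -0.33 to 0.08 and -0.38 to 0.05, limma adjusted p = 0.476 and 0.374). In siRRM1 they were -0.02 and -0.04 (adjusted p = 0.906 and 0.802 by limma).

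**Figure D3:**
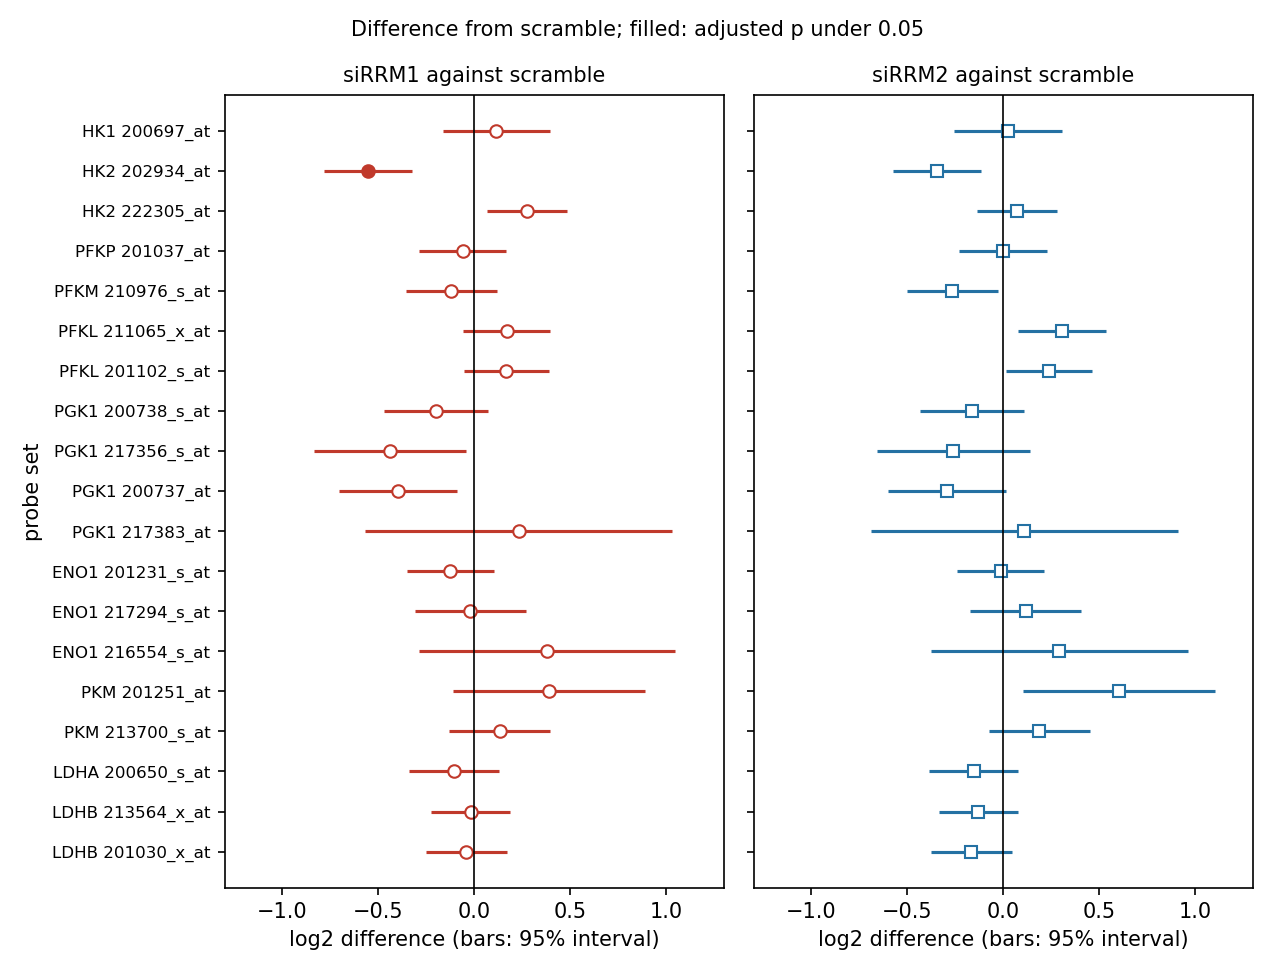
Log2 difference from scramble (horizontal axes) of each glycolytic probe set in siRRM1 (left) and siRRM2 (right), with bars for the 95% interval of the moderated fit and filled symbols for an adjusted p under 0.05. HK2 202934_at in siRRM1, at -0.56, is the only filled symbol, and the bars are longest for PGK1 217383_at, ENO1 216554_s_at and PKM 201251_at.

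The 2 scramble arrays differed from each other over this pathway. Scramble replicate 2 was above scramble replicate 1 in 16 of the 19 member probe sets (84.2%), against 48.7% of all probe sets tested, with a median difference of 0.16 against -0.01. The gap was 1.05 in PGK1 217383_at, 0.88 in ENO1 216554_s_at and 0.65 in PKM 201251_at, at the 99.8th, 99.7th and 99.0th percentile of the replicate differences in that group. Within siRRM1, replicate 2 was above replicate 1 in 7 of the 19 members (44.9% of all), and within siRRM2 in 10 of the 19 (53.8% of all).

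The same split appeared among hypoxia-inducible genes outside glycolysis, where 12 of 13 probe sets were higher in scramble replicate 2, by a median of 0.72, and 7 of 13 differed by over 0.5, as did 2.49% of all. BNIP3L 221478_at, a mitophagy receptor gene chosen after its values were seen, had 9.98 and 10.32 in siRRM1, 9.88 and 10.37 in siRRM2, and 9.09 and 10.35 in scramble. Of the 4 knockdown arrays, 3 lay between the scramble arrays and siRRM2 replicate 2 lay just above both. In this list 0 of 13 probe sets differed by over 0.5 between the siRRM1 arrays and 1 of 13 between the siRRM2 arrays.

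Which scramble array was used therefore decided some directions. ENO1 216554_s_at differed in siRRM1 by -0.06 without scramble replicate 1 and by 0.82 without scramble replicate 2, and PGK1 217383_at by -0.29 and 0.76. For PKM 201251_at the difference in siRRM2 was 0.28 without scramble replicate 1 and 0.93 without scramble replicate 2. None of these passed the threshold, and what set the scramble arrays apart was not tested.

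The remaining glycolytic enzymes were 15 tested probe sets of 11 genes, among them aldolases, triosephosphate isomerase and GAPDH. In each knockdown 0 rose and 1 fell, the same gene, BPGM, which makes bisphosphoglycerate in a side branch. Of all probe sets, 6.42% rose and 5.75% fell in siRRM1, and 1.12% and 0.203% in siRRM2. BPGM 203502_at had 6.53 and 6.44 in siRRM1, 6.35 and 6.41 in siRRM2, and 7.09 and 6.92 in scramble. All 4 knockdown arrays lay below scramble, with differences of -0.52 in siRRM1 and -0.63 in siRRM2 (limma adjusted p = 0.0201 and 0.0408). In siRRM1 the gene was no longer called when scramble replicate 1 (-0.44, adjusted p = 0.110) or siRRM1 replicate 2 (-0.48, adjusted p = 0.0941) was left out, and in siRRM2 when any 1 of the 6 arrays was (adjusted p 0.0519 to 0.227). The median difference of this list was 0.03 in both knockdowns, beside -0.02 in siRRM1 and -0.01 in siRRM2 over all probe sets.

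Among glucose and lactate transporters 0 of 8 tested probe sets rose and 2 fell in siRRM1 (6.42% and 5.75% of all). Both were of SLC16A7, a monocarboxylate transporter for pyruvate and lactate. The list as a whole lay higher, with a median difference of 0.20 in siRRM1 and 0.21 in siRRM2. Over all probe sets the medians were -0.02 and -0.01. Before adjustment, 5 of the 8 had a limma p under 0.05 in siRRM1 and 4 in siRRM2 (29.9% and 18.8% of all). SLC16A7 207057_at had 7.97 and 7.72 in siRRM1, 8.16 and 8.45 in siRRM2, and 8.99 and 8.79 in scramble, a stepwise order with no overlap. It fell in siRRM1 by 1.05 on the log2 scale (48.4% of scramble, SE 0.14, limma adjusted p = 0.00740), and the call remained without any 1 array. In siRRM2 the difference was -0.59 (limma adjusted p = 0.0970). SLC16A7 210807_s_at differed by -0.91 in siRRM1 (limma adjusted p = 0.0342), a call that was lost without either scramble array (adjusted p = 0.156 and 0.0753), without siRRM1 replicate 2 (0.127) or without either siRRM2 array (0.0506).

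Of 4 tested probe sets for enzymes that set the level of the allosteric activator of phosphofructokinase, 1 rose and 0 fell in siRRM1 (6.42% and 5.75% of all). It was TIGAR, a p53 target whose product breaks that activator down. TIGAR 219099_at had 10.03 and 10.04 in siRRM1, 9.66 and 9.70 in siRRM2, and 9.25 and 9.0 in scramble, again without overlap. It rose 1.88-fold in siRRM1 (log2 0.91, SE 0.11, limma adjusted p = 0.00497), also without any 1 array, with a difference of 0.56 in siRRM2 (adjusted p = 0.0614).

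Of 18 tested probe sets for pyruvate entry into mitochondria, 0 rose and 3 fell in siRRM1, and 0 were called in siRRM2. Of all probe sets, 6.42% rose and 5.75% fell in siRRM1, the background also for the lists later in this paragraph. PDHB, a subunit of pyruvate dehydrogenase, fell by 0.52 (208911_s_at) and 0.46 (211023_at) on the log2 scale, and MPC1 218024_at, a subunit of the mitochondrial pyruvate carrier, fell by 0.40 (limma adjusted p = 0.0390, 0.0394 and 0.0392). PDHB 211023_at and MPC1 lost the call without any 1 of the 6 arrays (adjusted p 0.0617 to 0.146 and 0.0505 to 0.151), and PDHB 208911_s_at kept it only without siRRM1 replicate 1 (0.0382). The median of the list for pyruvate entry was -0.21 in siRRM1 and -0.15 in siRRM2, beside -0.02 and -0.01 over all probe sets. In the pentose phosphate pathway 1 of 8 fell in siRRM1, the transketolase gene TKT by 208700_s_at (-0.47, adjusted p = 0.0498), and it was called without scramble replicate 1 only (-0.63, adjusted p = 0.0451) among the fits that left out 1 array. The TKT call was also lost with no filter (adjusted p = 0.0622), quantile normalization (0.0689) or robust variance estimates (0.0513), and those of PDHB 211023_at (0.0504) and MPC1 (0.0541) with no filter. Of 9 probe sets for gluconeogenesis and glycogen, 1 rose in siRRM1, PYGB 201481_s_at, a glycogen phosphorylase (log2 0.54, adjusted p = 0.0392), which lost the call without any 1 of the siRRM1 or scramble arrays (adjusted p 0.0722 to 0.15).

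Lists of regulators of glycolytic transcription, hypoxia-inducible genes and outer membrane partners of hexokinase held 16, 13 and 6 tested probe sets. By limma, 0 of these were called in either knockdown. Before adjustment, 5, 3 and 0 of them had a limma p below 0.05 in siRRM1, as did 29.9% of all probe sets. For siRRM2 the counts were 2, 0 and 0, beside 18.8% of all. The smallest p among the regulators belonged to the kinase gene AKT1 (207163_s_at, 0.31 in siRRM1 and 0.32 in siRRM2) and to ARNT, the partner of the hypoxia-inducible factors (218221_at, -0.33 in siRRM1 and -0.35 in siRRM2). Among hypoxia-inducible genes BNIP3 201848_s_at, a mitophagy receptor gene, differed by -0.71 in siRRM1 and -0.50 in siRRM2, and the histone demethylase gene KDM3A by -0.54 in siRRM1 and -0.24 in siRRM2. BNIP3 201848_s_at read 8.20 and 7.93 in siRRM1, 8.23 and 8.33 in siRRM2, and 8.33 and 9.23 in scramble, so the difference lay mostly in scramble replicate 2. VDAC1 212038_s_at and VDAC2 211662_s_at, which encode channel proteins of the outer mitochondrial membrane, had -0.15 and -0.14 in siRRM1 and -0.19 and -0.18 in siRRM2. Between the knockdowns 0 probe sets of these and the other glycolysis-related lists were called by limma.

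**Figure D4:**
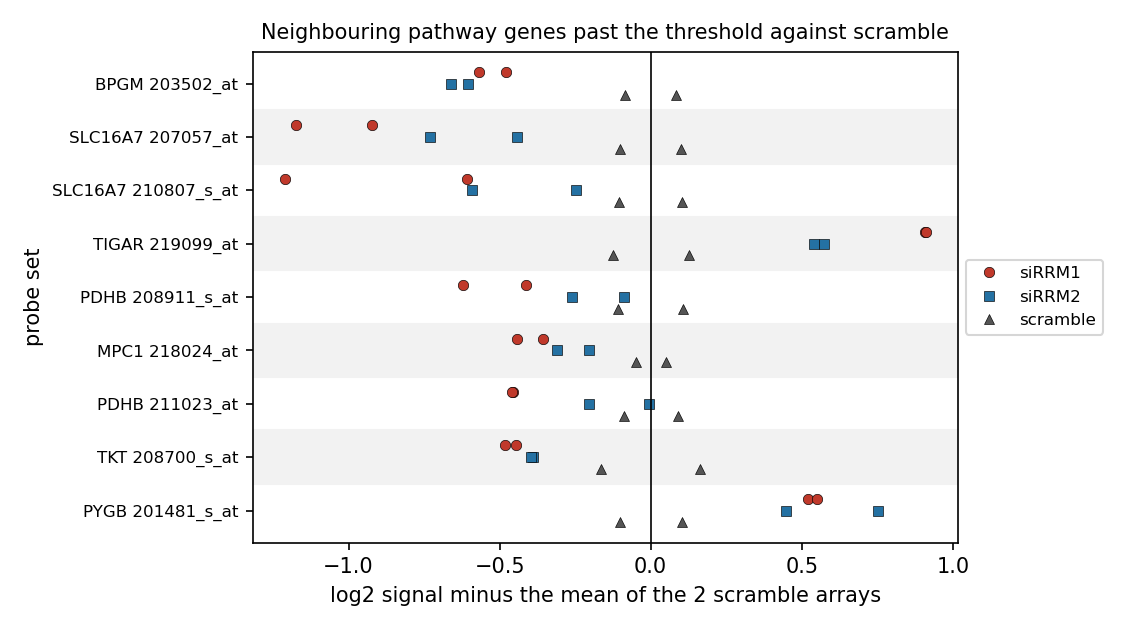
Log2 signal of each called probe set of the glycolysis-related lists on each array, minus the mean of the 2 scramble arrays (horizontal axis), with siRRM1 as circles, siRRM2 as squares and scramble as triangles. The siRRM1 circles of SLC16A7 207057_at and TIGAR, which differ from scramble by -1.05 and 0.91, are farther from scramble than the siRRM2 squares.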

How the data were processed

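Gene expression of NCI-H929 cells was read on 6 oligonucleotide arrays from biotin-labelled cRNA, per the labels' protocols. The authors deposited log2 signals. How these were summarised and normalized was not stated in the labels. The log base was read from the values, whose highest was 14.4. Array medians of 6.11 to 6.16 showed a common scale, so no scaling was applied.

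Gene symbols came from the platform annotation, where 19070 had 1 symbol, 1043 several and 2164 none listed. Identifiers of 19058 matched the RefSeq table of GRCh38.p14, which changed 0 symbols, and no probe set with several symbols names a member. Apart from the filter and the percentiles of mean signal, no level of one probe set is set against another's. After 62 control probe sets were left out, those with a mean at or above the 40th percentile (5.44) were fitted by lmFit and eBayes of limma 3.58.1 (R 4.3.3), with 3 residual and 4.29 prior degrees of freedom and two-sided p-values, adjusted by Benjamini-Hochberg over 13308. The script was tested on simulated data. Precision is limited by 2 arrays a group.

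Named genes follow a rule: all member probe sets, RRM1 and RRM2, up to 3 higher and 3 lower calls of each other list by adjusted p (or, with none, the 2 with the smallest p), and the 5 probe sets most like HK2. Members and lists were chosen with earlier results of these data known. Alternatives covered the filter, normalization, prior variance, probe sets per gene, call rule, arrays in the fit, a replicate block and each array left out.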

Additional observations from a re-analysis of the deposited data

How the results depend on the processing

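Over 16 alternatives, the 17 probe sets of the members other than HK2 stayed outside the threshold in 789 of 789 values (lowest limma adjusted p 0.0515), and HK2 kept its side in 87 of 90. In 26 of those 789 values, over 10 probe sets, the sign turned, always for a difference outside the threshold. After median centring HK1 200697_at was -0.013 and PFKP 201037_at -0.036 in siRRM2, and with quantile normalization ENO1 201231_s_at was 0.0069 there. The rest of the 26 came from leaving out 1 array. In siRRM1 this gave -0.14 to 0.017 for PFKP 201037_at, -0.29 to 0.76 for PGK1 217383_at, -0.17 to 0.12 for ENO1 217294_s_at, -0.061 to 0.82 for ENO1 216554_s_at and -0.053 to 0.014 for LDHB 213564_x_at. In siRRM2 it gave -0.10 to 0.15 for HK1, -0.077 to 0.079 for PFKP, -0.42 to 0.63 for PGK1 217383_at, -0.090 to 0.064 for ENO1 201231_s_at and -0.14 to 0.73 for ENO1 216554_s_at. Between siRRM1 and siRRM2 it gave -0.038 to 0.22 for HK1, -0.088 to 0.0097 for PGK1 200738_s_at, -0.22 to 0.0081 for 200737_at, -0.19 to 0.43 for 217383_at, -0.28 to 0.0032 for ENO1 217294_s_at, -0.18 to 0.35 for 216554_s_at and -0.18 to 0.064 for PKM 213700_s_at. HK2 202934_at in siRRM1, at -0.56, was no longer called when 1.5-fold was also required, and 0 glycolytic probe sets were then called. Leaving out 1 array gave it -0.64 to -0.47 and the glycolytic count 0 to 1, with the call lost without either scramble array. HK2 222305_at gave no value with the 60th percentile filter or with 1 probe set a gene. In the neighbouring lists, requiring 1.5-fold also removed the siRRM1 calls of BPGM, PYGB, TKT, both PDHB probe sets and MPC1. Those of TIGAR and both SLC16A7 probe sets in siRRM1, and of BPGM in siRRM2, remained. Counts over all probe sets moved more. The siRRM1 count of 1619 became 923 with only its own groups in the fit and 819 with 1.5-fold required, and 386 to 2003 with 1 array left out. The siRRM2 count of 176 became 347 with a variance trend, and 6 to 135 with 1 array left out. The 5 calls between siRRM1 and siRRM2 became 3 with the 60th percentile filter, 16 with a trend, 13 with 1 probe set a gene, and 2 to 5 with 1 array left out. With only the groups of the contrast in the fit, the siRRM1 calls of TKT (limma adjusted p = 0.0930), PDHB (0.0668 and 0.0617), MPC1 (0.0758) and SLC16A7 210807_s_at (0.0506) and the siRRM2 call of BPGM (0.0519) were lost. A fit on fewer arrays has fewer residual degrees of freedom, and the cause of the other moves was not tested. With the replicate number as a block, the counts were 2746 for siRRM1, 712 for siRRM2 and 101 between them, and HK2 202934_at had a limma adjusted p of 0.00702 in siRRM1. Deviations of same-numbered arrays correlated at 0.210 to 0.362 across probe sets. The labels do not say whether same-numbered arrays were handled together. The main fit has no term for such a pairing, and a shared batch was not tested. Depth on an array is the signal over background, and no background estimate was used here.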
